A study of Mus musculus with 36 samples.

Results

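The A20 and ubiquitin feedback genes of NF-κB signalling were followed through 24 h of IL-1β in mouse fibroblast-like chondrocytes. The group holds the 10 genes *Tnfaip3*, *Tnip1*, *Tnip2*, *Tnip3*, *Cyld*, *Birc2*, *Birc3*, *Traf1*, *Traf2* and *Traf3*, which were chosen by gene symbol, and each was found among the 53421 genes of the count table. Poly(A) RNA came from a conditionally immortalised chondrocyte line described as wild type, so all libraries share 1 line. The cells received a non-targeting siRNA pool (NT) or an siRNA pool against *Ift88* (IFT88siRNA), the gene of a protein that carries cargo in the primary cilium, and were then harvested from medium only (0 h) or after IL-1β at 10 ng/ml, which lasted 1, 2, 4 or 8 h or a full 24 h. Each of the 12 conditions had 3 replicates, which gave 36 libraries.

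NF-κB is held in the cytoplasm until receptors such as those for IL-1 and TNF recruit TRAF and cIAP ubiquitin ligases, whose ubiquitin chains assemble the kinases that release it. The chains are then cut or masked again. A20, the product of *Tnfaip3*, and CYLD remove ubiquitin chains, and the ABIN proteins, encoded by the *Tnip* genes, bind both A20 and ubiquitin. Several of these genes are themselves NF-κB targets, which is why the system is described as a feedback loop.

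The consensus κB motif, the DNA sequence that NF-κB binds, was searched on both strands in the 250 bases upstream of each RefSeq start site. The choice by symbol did not use these upstream sequences. The group is defined by feedback on NF-κB, however, so a match is not independent of that choice. Of 32851 RefSeq promoters (GRCm38.p6), 7.25% held at least 1 match and 1.03% held 2 or more. All 10 members had a RefSeq window, in 12 start sites. Counted per window like these shares, 5 of the 12 held a match, each in a different member. The 6 stretches with a match are printed 5′ to 3′ on the strand of the gene, with the matching letters in capitals. All lie outside annotated exons. RefSeq start sites can differ from those of the GENCODE genes, whose positions are given below. For *Tnip1* alone, bases just after the RefSeq start were found in no GENCODE transcript of the gene. The stretches of *Tnfaip3* and *Tnip3* lie inside these GENCODE gene spans. Of the *Tnfaip3* window with matches, 110 bases lie in a GENCODE exon.

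*Tnfaip3*, chr10:19015516-19015545, minus strand: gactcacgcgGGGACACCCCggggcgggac
*Tnfaip3*, chr10:19015411-19015440, minus strand: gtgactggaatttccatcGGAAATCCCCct
*Tnip1*, chr11:54962978-54963007, minus strand: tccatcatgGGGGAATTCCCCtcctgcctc
*Tnip3*, chr6:65590334-65590363, plus strand: gagacatcctGGGAAATCCCagttacatgg
*Cyld*, chr8:88696863-88696892, plus strand: ttgaccgagcGGAAAGTCCCttcagccagc
*Traf3*, chr12:111166340-111166369, plus strand: cgcgcgcccaggcggcccgcGGGGATTTCC

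In *Tnfaip3* the matches began 125 and 12 bases before the RefSeq start site, and in *Tnip1* 3 overlapping matches spanned bases 58 to 47 before it. The matches of *Tnip3*, *Cyld* and *Traf3* began 54, 155 and 10 bases before the start. No match was found in these windows for *Tnip2*, *Birc2*, *Birc3*, *Traf1* or *Traf2*. The window of *Traf1*, whose rise was second to that of *Tnfaip3* in the data described below, is printed as the case without a match.

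*Traf1*, chr2:34961773-34962022, minus strand: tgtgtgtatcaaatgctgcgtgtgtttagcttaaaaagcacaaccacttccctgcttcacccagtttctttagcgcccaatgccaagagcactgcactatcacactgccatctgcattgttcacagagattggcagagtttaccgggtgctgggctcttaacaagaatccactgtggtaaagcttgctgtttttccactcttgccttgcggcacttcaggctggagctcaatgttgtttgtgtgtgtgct

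A match describes letters and not a bound site, and members with and without a match both responded to IL-1β, as given below. *Cyld*, with a match, and *Tnip2*, without one, were not called over the course in NT.

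Libraries held 19337022 to 38304127 counts on genes (median 21672803.5 in NT and 25873754 in IFT88siRNA), and the precision this gives covers counting error only. *Ift88* itself was lower in IFT88siRNA at all 6 time points, by 1.47 to 2.12 on the log2 scale, and its levels in the 2 siRNA groups did not overlap at any of them. Of the 6 fibroblast markers, *Col1a2* was the most abundant, between 414 and 1006 TPM, the relative abundance of transcripts corrected for their length. The lowest were *Pdgfra*, between 6.11 and 26.9 TPM, and *Thy1*, between 3.29 and 19.7 TPM. Of 6 chondrocyte markers, *Sox9* lay between 5.98 and 34.5 TPM, *Comp* between 4.18 and 22.0 TPM and *Col2a1* between 1.43 and 9.05 TPM, whereas *Acan*, *Matn1* and *Col9a1* stayed at or below 0.206, 0.560 and 0.106 TPM. *Ptprc*, which defines leukocytes, did not exceed 0.161 TPM. The summed level of the 5 leukocyte markers nevertheless was 8.51 to 9.25 TPM at 0 h and 37.2 to 41.5 TPM at 24 h in NT, almost all of it *Cd14*. In NT the 6 chondrocyte markers summed to 28.1 to 32.0 TPM at 0 h, 53.1 to 57.1 TPM at 2 h and 14.7 to 15.5 TPM at 24 h. The 6 fibroblast markers summed to 1094 to 1161 TPM at 0 h, 1517 to 1543 TPM at 1 h and 639 to 686 TPM at 24 h. The part of these shifts in the members' courses was not tested. In bulk samples, fewer cells of a type and less RNA per cell cannot be told apart.

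In resting NT cells *Cyld* was the most abundant of the 10 transcripts, at 96.7 ± 4.04 TPM (mean ± s.d., n = 3), a scale on which genes can be compared. *Birc2* (34.4 ± 1.56 TPM) and *Traf2* (33.9 ± 1.71 TPM) followed with overlapping libraries, and then *Tnip1* at 24.5 ± 2.11 TPM. *Traf3*, *Tnip2*, *Tnfaip3* and *Birc3* lay between 13.1 and 17.0 TPM, and each overlapped its neighbour in the order. *Tnip3* (0.786 TPM) and *Traf1* (0.397 TPM) were the lowest. The order was different after 1 h of IL-1β. *Tnfaip3* reached 1046 ± 37.8 TPM, and its share of the summed TPM of the 10 genes went from 5.76% to 79.4%. *Cyld* was then next at 79.6 TPM, followed by *Birc3* at 57.1 TPM. By 24 h *Cyld* again led at 97.8 TPM and *Tnfaip3* was in sixth place at 27.0 TPM. The summed level of the 10 genes was 252 TPM at 0 h, 1318 TPM at 1 h and 334 TPM at 24 h.

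**Figure D1:**
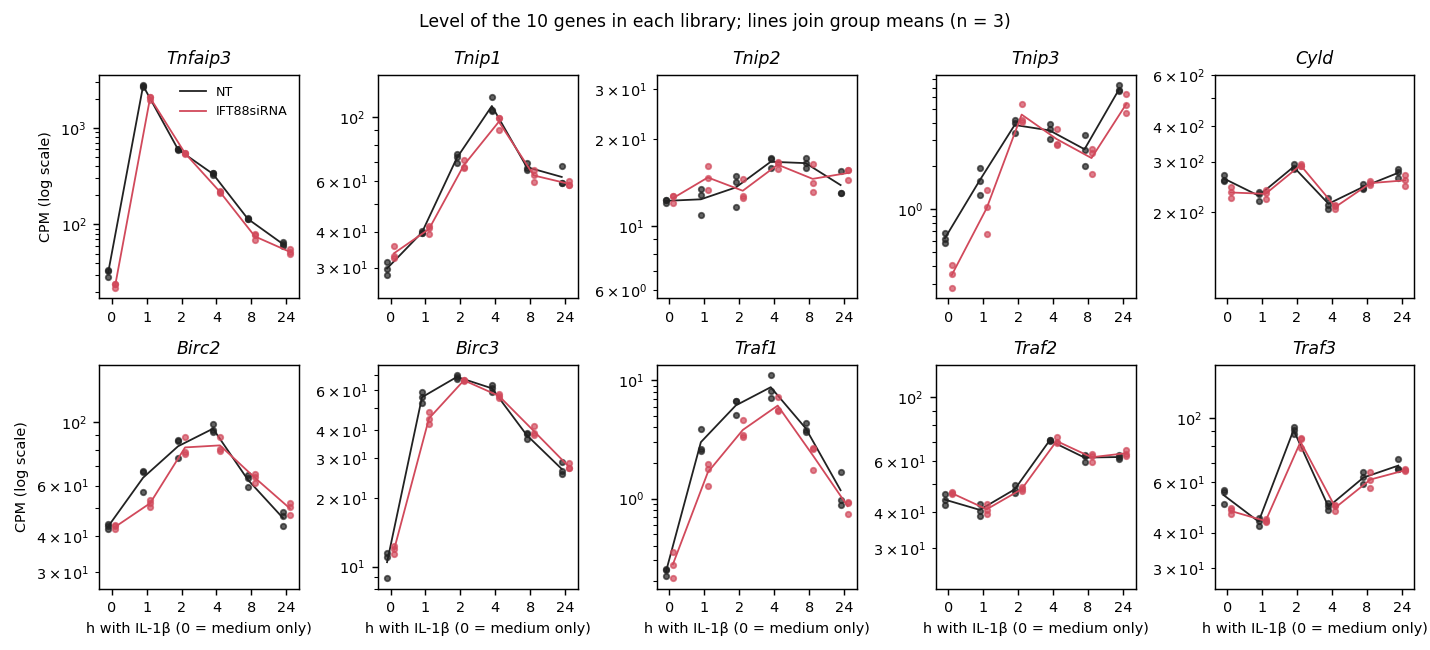
Level of each of the 10 genes in CPM (counts scaled to library size, log axis) against hours with IL-1β (0 = medium only). Points are the 36 libraries, lines join the means of 3 replicates, black is NT and red is IFT88siRNA. *Tnfaip3* is highest at 1 h, *Traf1* at 4 h and *Tnip3* at 24 h in both groups.

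The course of each member in NT was compared with 0 h by edgeR's quasi-likelihood test over 16048 genes, and a change was called with a Benjamini-Hochberg adjusted p under 0.05 and a fold change over 1.5. All comparisons with 0 h share the same 3 libraries. At 1 h, 4 of 10 members were called higher (*Tnfaip3*, *Tnip3*, *Birc3* and *Traf1*), beside 9.22% of all genes tested. At 2 h there were 7 (these and *Tnip1*, *Birc2* and *Traf3*) beside 13% of all genes, and at 4 h there were 7 (with *Traf2* in place of *Traf3*) beside 16.3%. At 8 h and at 24 h the same 5 were called (*Tnfaip3*, *Tnip1*, *Tnip3*, *Birc3* and *Traf1*), beside 11.8% and 6.61% of all genes. No member was called lower at any time. With the 5 time points tested together, 8 of 10 members changed, beside 50% of all genes, and *Tnip2* and *Cyld* did not pass the fold threshold. The median log2 fold change of the 10 members was 0.49 at 1 h and 1.51 at 4 h, beside -0.01 and -0.02 for all genes. Upper-quartile scaling in place of TMM moved the median of all genes by -0.12 at 4 h and by -0.11 at 2 h, and the share of higher genes among those called at 4 h from 56.7% to 45.7%.

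**Figure D2:**
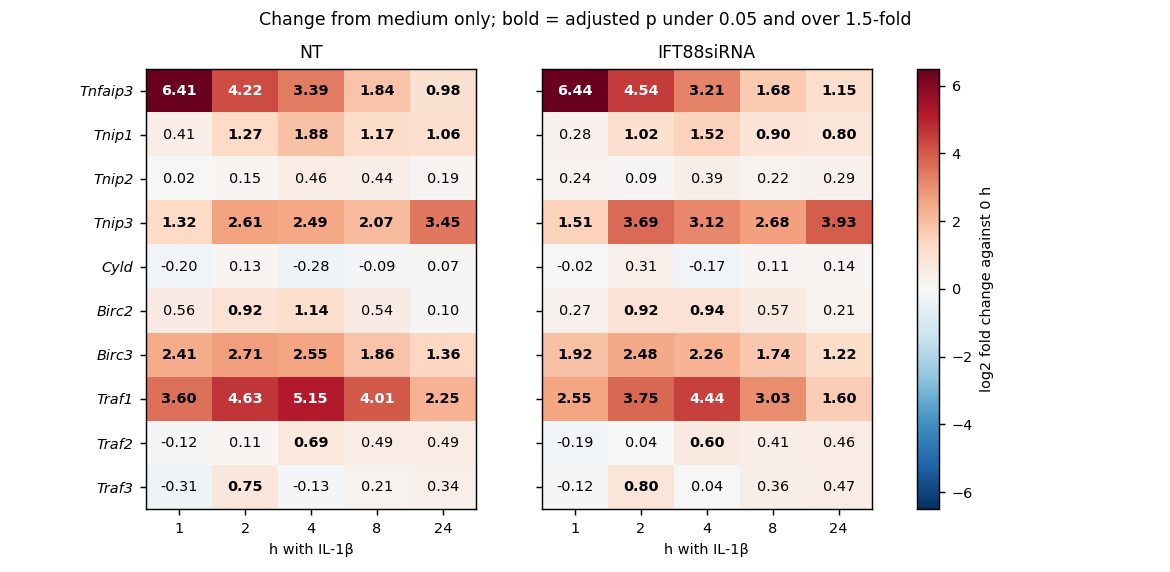
Log2 fold change of the 10 genes against 0 h at the 5 times with IL-1β, in NT (left) and IFT88siRNA (right), with 3 libraries per condition. Colour gives the value printed in each cell, and bold marks an adjusted p under 0.05 with a fold change over 1.5. The same members are bold at each time in both panels.

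*Tnfaip3* (ENSMUSG00000019850, chr10:19000910-19015657, minus strand, GRCm38), which encodes A20, had the fastest and largest rise of the group. Its level in the 3 NT libraries was 33.0, 33.8 and 28.9 CPM at 0 h, and 2725, 2783 and 2635 CPM at 1 h. It was 583, 604 and 601 CPM at 2 h, 339, 321 and 338 CPM at 4 h, 116, 113 and 113 CPM at 8 h, and 65.9, 62.9 and 59.7 CPM at 24 h. Every condition stood clear of the others, and none of the 3 libraries strayed from its group. The rise at 1 h was 84.9-fold (log2 6.41, s.e. 0.06, adjusted p = 1.96e-29), the 13th largest of 16048 genes. The transcript then fell at each step, by 2.19 from 1 to 2 h, 0.83 from 2 to 4 h, 1.55 from 4 to 8 h and 0.86 from 8 to 24 h on the log2 scale. At 24 h it stood at 2.31% of its peak and still 1.97-fold over 0 h (adjusted p = 1.05e-13).

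The 3 ABIN genes had 3 different courses. *Tnip1* (ENSMUSG00000020400, chr11:54910785-54962917, minus strand), encoding ABIN-1, had 31.5, 29.7 and 28.2 CPM at 0 h, 39.4, 40.4 and 39.5 CPM at 1 h and 105, 106 and 117 CPM at 4 h. It thus rose slowly, with no overlap between these groups, to 3.69-fold at 4 h (log2 1.88, s.e. 0.06, adjusted p = 3.22e-19), and kept 56.7% of its peak at 24 h. *Tnip2* (ENSMUSG00000059866, chr5:34496087-34513991, minus strand), encoding ABIN-2, lay between 10.9 and 17.2 CPM in all 18 NT libraries. Its largest difference from 0 h was 1.38-fold at 4 h (adjusted p = 0.000143), under the fold threshold. *Tnip3* (ENSMUSG00000044162, chr6:65525313-65634040, plus strand), encoding ABIN-3, was barely detected at rest, with 16, 14 and 14 counts. It had 65, 91 and 90 counts at 2 h and 196, 178 and 198 counts at 24 h. It was the only member whose highest mean was at 24 h, in NT and in IFT88siRNA alike. The rise in NT was 6.12-fold at 2 h and 10.9-fold at 24 h (log2 3.45, s.e. 0.19, adjusted p = 1.61e-13), and the step from 8 to 24 h was itself called (log2 1.38, adjusted p = 2.74e-08).

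*Cyld* (ENSMUSG00000036712, chr8:88697028-88751945, plus strand), the other deubiquitinase of the group, hardly moved. Its level was 257, 270 and 260 CPM at 0 h, 282, 295 and 286 CPM at 2 h and 225, 212 and 206 CPM at 4 h. The groups at 2 and 4 h lay on either side of 0 h without overlapping it, but the differences were 1.09-fold and 0.821-fold, within the fold threshold (adjusted p = 0.0102 and 2.77e-06).

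*Birc2* (ENSMUSG00000057367, chr9:7818227-7837064, minus strand) and *Birc3* (ENSMUSG00000032000, chr9:7848699-7873186, minus strand) are neighbouring paralogues that encode the ubiquitin ligases cIAP1 and cIAP2. *Birc3* had 11, 11.5 and 8.87 CPM at 0 h, 55.9, 52.9 and 59.0 CPM at 1 h and 67.3, 68.8 and 70.2 CPM at 2 h. Most of its rise was thus complete at 1 h (5.32-fold, adjusted p = 1.04e-18), and it was 6.54-fold over 0 h at 2 h. *Birc2* started higher, at 42.3, 44.1 and 43.5 CPM, and reached 92.2, 93.4 and 98.3 CPM at 4 h, with no overlap between the groups. That rise was 2.20-fold (log2 1.14, s.e. 0.06, adjusted p = 9.96e-14). At 24 h *Birc2* differed from 0 h by 0.10 on the log2 scale (adjusted p = 0.232), whereas *Birc3* was still 2.57-fold higher. How reads that match both paralogues were shared between them was not tested. In TPM, which was estimated by another tool, the step of *Birc3* from 1 to 2 h was 0.67 on the log2(TPM + 1) scale (limma, adjusted p = 0.0011) in place of 0.30 in the counts.

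Of the TRAF adaptors, which link receptors to the cIAPs, *Traf1* (ENSMUSG00000026875, chr2:34941750-34961772, minus strand) had the second largest rise of the group. It had 6, 6 and 5 counts at 0 h, 47, 60 and 79 counts at 1 h, 143, 153 and 209 counts at 4 h and 45, 26 and 26 counts at 24 h. At 4 h, when it was highest, this was 8.10, 7.02 and 11.1 CPM, and replicate 3 stood above the other two. The rise was 12.2-fold at 1 h and 35.5-fold at 4 h (log2 5.15, s.e. 0.30, adjusted p = 1.3e-13), and 13.5% of the peak was left at 24 h. *Traf2* (ENSMUSG00000026942, chr2:25517982-25546940, minus strand) had 42.2, 46.3 and 43.9 CPM at 0 h and 71.1, 71.0 and 70.4 CPM at 4 h. The groups did not overlap and the difference was 1.61-fold (adjusted p = 4.05e-12), which upper-quartile scaling took to 0.57 and log2(TPM + 1) to 0.39 on the log2 scale, both under the threshold. *Traf3* (ENSMUSG00000021277, chr12:111166370-111267153, plus strand), an adaptor that restrains the non-canonical pathway, had 56.2, 55.3 and 50.3 CPM at 0 h, 91.1, 88.4 and 93.0 CPM at 2 h and 49.3, 47.7 and 50.5 CPM at 4 h. Of the 5 times compared with 0 h, it was called at 2 h alone (1.68-fold, adjusted p = 3.14e-12), and both the step up from 1 h (log2 1.06) and the step down to 4 h (log2 -0.87) were called. On log2(TPM + 1) the difference at 2 h was 0.57, under the threshold, with and without a filter on TPM.

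Steps between neighbouring time points in NT show when each member turned. From 1 to 2 h, *Tnip1*, *Tnip3*, *Traf1* and *Traf3* rose, beside 6.08% of all genes, and *Tnfaip3* fell, beside 5.8%. From 2 to 4 h *Tnip1* rose, beside 16.6% of all genes, and *Tnfaip3* and *Traf3* fell, beside 10.5%. From 4 to 8 h no member rose, beside 7.01% of all genes, and 5 fell (*Tnfaip3*, *Tnip1*, *Birc2*, *Birc3* and *Traf1*), beside 9.93%. From 8 to 24 h *Tnip3* rose, beside 3.15%, and *Tnfaip3* and *Traf1* fell, beside 10.2%. In all, 16 of 40 steps were called. Upper-quartile scaling moved the share of higher genes among those called from 4 to 8 h from 41.4% to 52.2%, and with it *Birc2* was not called at that step (log2 -0.52). That call of *Birc2* (-0.59) held in 6 of 12 alternatives and was also lost without replicate 1 (-0.58), without the filter on low counts (-0.58) and on TPM. The rise of *Tnip1* from 2 to 4 h (0.61) was called in 7 of 12 and was lost without replicate 3 (0.57), without the filter on low counts (0.57) and on TPM. On log2(TPM + 1) the fall of *Tnip1* from 4 to 8 h was -0.53, under the threshold.

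**Figure D3:**
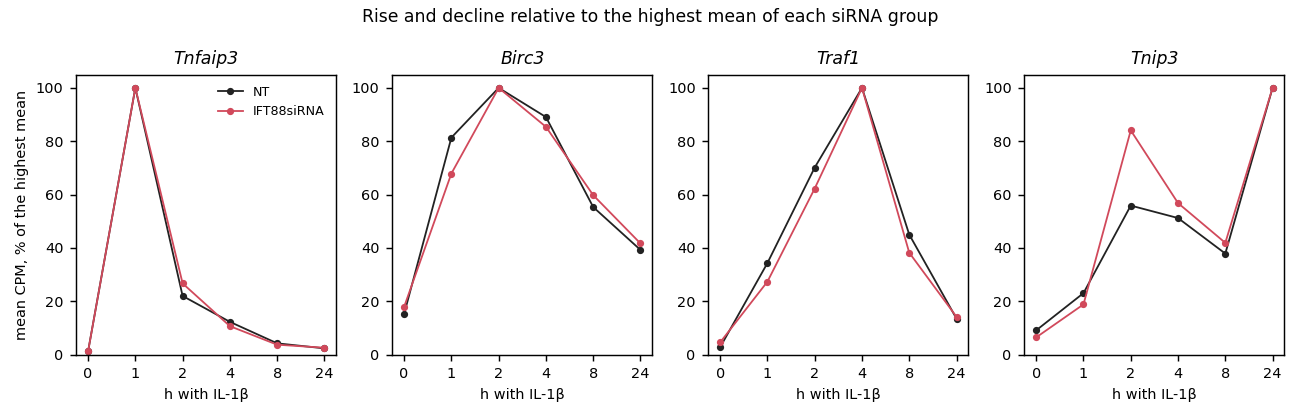
Mean CPM of *Tnfaip3*, *Birc3*, *Traf1* and *Tnip3* as a percentage of the highest mean in the same siRNA group, against hours with IL-1β (3 libraries per point, black NT, red IFT88siRNA). At 24 h in NT, *Tnfaip3* stands at 2.31% of its peak, *Traf1* at 13.5%, *Birc3* at 39.2% and *Tnip3* at its highest mean.

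The same course was measured in IFT88siRNA cells, over 16129 genes. The members called at each time were those called in NT, with 4 at 1 h (beside 6.82% of all genes), 7 at 2 h (12.4%), 7 at 4 h (16%), 5 at 8 h (10.5%) and 5 at 24 h (6.36%), and 8 of 10 over the whole course, beside 48.2%. *Tnfaip3* rose 86.9-fold at 1 h (log2 6.44, s.e. 0.07, adjusted p = 1.72e-27), *Birc3* 5.59-fold at 2 h, *Traf1* 21.7-fold at 4 h and *Tnip3* 15.2-fold at 24 h. Here upper-quartile scaling moved the share of higher genes among those called from 48.4% to 38.0% at 2 h and from 54.5% to 44.1% at 4 h. It took *Traf2* at 4 h from 0.60 to 0.49 on the log2 scale, under the threshold, and log2(TPM + 1) took it to 0.33. On log2(TPM + 1), *Tnip3* at 1 h (0.577) and *Traf3* at 2 h (0.566) were also under it. The time of the highest mean was the same in both siRNA groups for all 10 members. The called steps between neighbouring times were not all those of NT. From 1 to 2 h *Birc2* also rose (beside 7.25% of all genes), and from 2 to 4 h *Traf1* rose in place of *Tnip1* (16%). *Birc2* and *Birc3* were not called lower from 4 to 8 h (9.96%), nor *Tnfaip3* from 8 to 24 h (7.89%).

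The effect of *Ift88* siRNA was tested at each time point between 3 IFT88siRNA and 3 NT libraries. Of 59 results (*Traf1* had too few reads at 0 h to be tested), 4 were called and all 4 were lower in IFT88siRNA. They were *Traf1* at 1 h, *Tnfaip3* at 4 h, and *Tnfaip3* and *Traf1* at 8 h. Most called genes were lower at these times, 366 of 393 at 1 h, 59 of 64 at 4 h and 93 of 105 at 8 h. In these fits edgeR called no member at 0, 2 or 24 h, where 5, 3 and 2 members had an unadjusted p under 0.05, beside 32.1%, 17.2% and 22.2% of all genes. *Traf1* at 2 h (-0.68, adjusted p = 0.051) lay at the threshold. It was called in 7 of 16 alternatives, among them DESeq2 (-0.69, adjusted p = 0.0216) and edgeR with 1 model for all 36 libraries (-0.68, adjusted p = 0.0189), and its adjusted p over the 16 lay between 0.000332 and 0.624. Of all genes tested, 2.23% were called in either direction at 0 h, 2.66% at 1 h, 0.496% at 2 h, 0.432% at 4 h, 0.692% at 8 h and 1.15% at 24 h. With the 6 time points tested together in all 36 libraries, *Tnfaip3* (adjusted p = 2.51e-15), *Traf1* (adjusted p = 0.000105) and *Tnip3* (adjusted p = 0.0202) were called, 3 of 10 beside 5.19% of all genes. The call of *Traf1* was lost in all 3 settings on TPM. By adjusted p alone it was 8 of 10 beside 31.8%. Between the siRNA groups the summed chondrocyte markers were 28.1 to 32.0 TPM in NT and 34.6 to 36.3 TPM in IFT88siRNA at 0 h, and 14.7 to 15.5 against 20.9 to 21.7 TPM at 24 h. At 2 h they were the other way round, at 53.1 to 57.1 TPM in NT and 49.7 to 52.3 TPM in IFT88siRNA. The summed leukocyte markers were 30.8 to 36.5 TPM in NT and 25.6 to 28.4 TPM in IFT88siRNA at 8 h, and 37.2 to 41.5 against 29.0 to 31.3 TPM at 24 h. Almost all of these sums was *Cd14*. *Itgam*, *Csf1r*, *Ptprc* and *Adgre1* did not exceed 0.981, 0.264, 0.161 and 0.0406 TPM in any library. The summed fibroblast markers were 639 to 686 against 695 to 761 TPM at 24 h. The part of these gaps in the members' differences was not tested.

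*Tnfaip3* was lower in every IFT88siRNA library than in every NT library at all 6 time points, before IL-1β as well as after it. How many of all genes were separated in this way was not counted. The IFT88siRNA libraries had 24.2, 24.1 and 22.0 CPM at 0 h, 2069, 2095 and 1956 CPM at 1 h and 209, 223 and 219 CPM at 4 h. They had 537, 552 and 543 CPM at 2 h, 79.0, 68.7 and 78.0 CPM at 8 h and 55.4, 49.4 and 51.6 CPM at 24 h. Set against the NT values above, the gap was narrow at 2 h and wide at 4 and 8 h. IFT88siRNA cells held 73.4% of the NT level at 0 h, 74.8% at 1 h, 91% at 2 h, 65.0% at 4 h, 65.2% at 8 h and 82.5% at 24 h. The difference was -0.45 (95% interval -0.58 to -0.31, adjusted p = 3.9e-05) on the log2 scale at 0 h, -0.62 (-0.72 to -0.53, adjusted p = 3.87e-06) at 4 h and -0.62 (-0.75 to -0.49, adjusted p = 0.000318) at 8 h. The adjusted p was under 0.05 at 5 of 6 times, and at 2 h it was 0.105. Without replicate 2 of the IFT88siRNA libraries at 8 h, the lowest of the 3, the difference at 8 h was -0.55 (adjusted p = 0.000702) and no longer over 1.5-fold. Tested on log2(TPM + 1) with limma, the differences at 4 and 8 h were -0.59 and -0.67 and missed the threshold (adjusted p = 0.0661 and 0.059). *Ift88* was not called in that setting at these times either (-1.35 and -1.62, adjusted p = 0.176 and 0.145). Over all settings tried, the adjusted p of *Tnfaip3* lay between 3.01e-34 and 0.1 at 4 h and between 2.74e-18 and 0.102 at 8 h.

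*Traf1* was below NT at all 5 time points tested. In IFT88siRNA it had 42, 34 and 48 counts at 1 h (1.77, 1.27 and 1.97 CPM) and 58, 50 and 77 counts at 8 h (2.62, 1.73 and 2.66 CPM). The NT libraries had 2.51, 2.60 and 3.89 CPM at 1 h and 3.77, 3.66 and 4.37 CPM at 8 h, so the groups did not overlap at these times, nor at 2 h. The share of all genes without overlap at these times was not counted. The difference was -0.86 (95% interval -1.31 to -0.41, adjusted p = 0.0108) on the log2 scale at 1 h and -0.78 (-1.18 to -0.37, adjusted p = 0.0406) at 8 h. At 2, 4 and 24 h it was -0.68, -0.51 and -0.46 (adjusted p = 0.051, 0.0934 and 0.351). These calls changed when single libraries were left out. At 1 h the call was lost without replicate 3 of NT (-0.63, adjusted p = 0.0754). At 8 h it was lost without any 1 of 5 of the 6 libraries (-0.59 to -0.85, adjusted p from 0.0635 to 0.185) and held without replicate 3 of IFT88siRNA (-0.91, adjusted p = 0.00747). At 2 h it was gained without replicate 2 of NT (-0.80, adjusted p = 0.00277) or replicate 3 of IFT88siRNA (-0.86, adjusted p = 0.0249), and at 4 h without replicate 3 of IFT88siRNA (-0.66, adjusted p = 0.0286).

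*Tnip3* differed most before IL-1β, with 12, 8 and 10 counts in IFT88siRNA against 16, 14 and 14 in NT at 0 h. At that depth the difference of -0.83 had a 95% interval of -1.51 to -0.16 and was not called (adjusted p = 0.0765). It was -0.65 at 1 h, 0.23 at 2 h and -0.36 at 24 h (adjusted p = 0.1, 0.489 and 0.0646), so its sign was not the same throughout. The call over the 6 time points was lost whichever replicate number was left out.

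The other 7 members differed by -0.32 to 0.24 over 42 results, and none of these passed the fold threshold. *Birc3* had 44.7, 42.5 and 48.0 CPM at 1 h in IFT88siRNA, below all 3 NT libraries, and *Birc2* had 50.6, 52.1 and 53.6 CPM, also below. Their differences at 1 h were -0.32 (adjusted p = 0.00108) and -0.30 (adjusted p = 0.00237) on the log2 scale. At 0 h, before IL-1β, 3 other members also had an adjusted p under 0.05 in edgeR. *Tnip1* was higher in IFT88siRNA (0.17, adjusted p = 0.0417), and *Cyld* (-0.16, adjusted p = 0.00781) and *Traf3* (-0.18, adjusted p = 0.0132) were lower. *Traf3* was lower without overlap at 3 of the 6 times. The share of all genes without overlap was not counted. *Traf2* was the closest to NT, with 95% intervals between -0.12 and 0.18 at the 6 times and overlapping libraries at each. *Tnip2* also overlapped at each time.

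**Figure D4:**
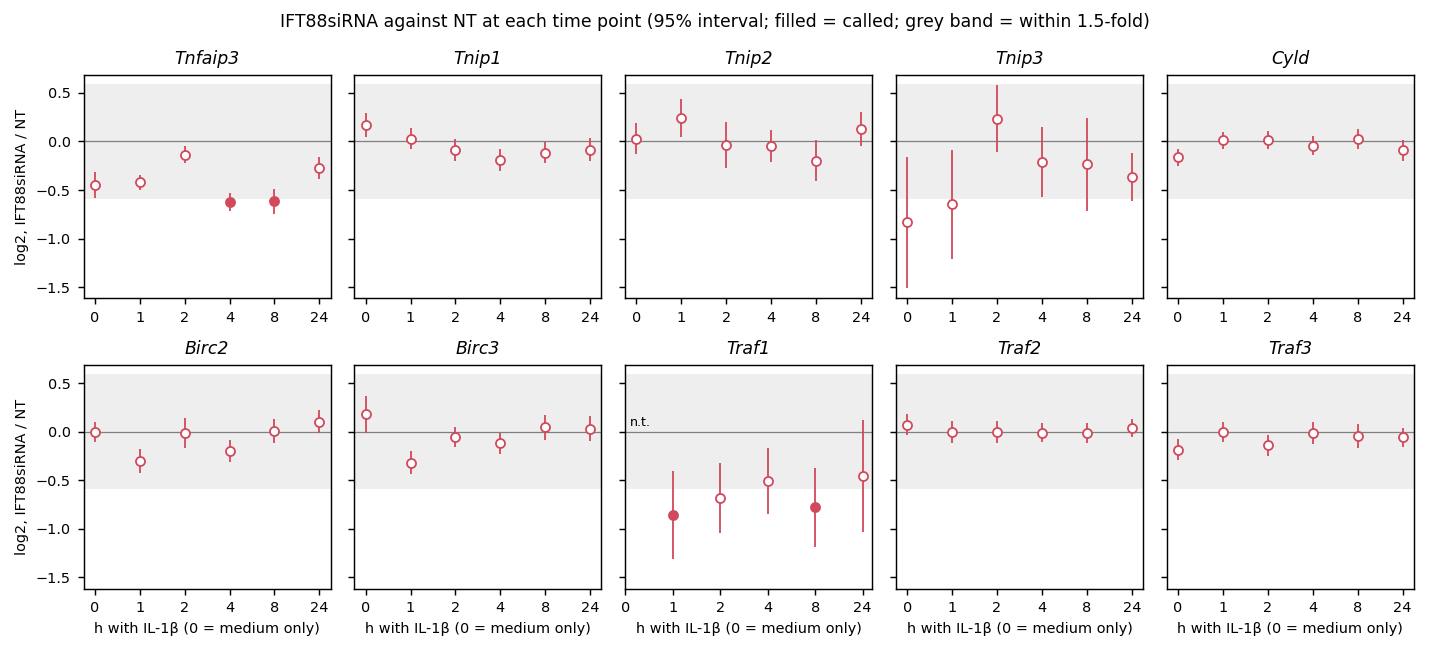
Difference between IFT88siRNA and NT on the log2 scale at each time point for the 10 genes, with 95% intervals (3 libraries per group). Filled points passed both thresholds, the grey band covers differences within 1.5-fold and n.t. marks *Traf1* at 0 h, which was not tested. *Tnfaip3* lies below 0 at all 6 times and *Traf1* at the 5 tested.

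A difference that is present before IL-1β is not a difference in the response to it, so the change from 0 h was compared between the siRNA groups in all 36 libraries. With the 5 time points tested together, no member was called, beside 1.2% of all genes. DESeq2 also called none with both thresholds, and 7 members had an unadjusted p under 0.05 in edgeR, beside 16.8% of all genes. By adjusted p alone 4 of 10 members passed, beside 5.53% of all genes. They were *Tnfaip3*, *Tnip1*, *Birc2* and *Birc3*, with largest differences of 0.31, -0.36, -0.29 and -0.49 on the log2 scale. For *Tnfaip3* the difference in response at 1 h was 0.03 (s.e. 0.08, adjusted p = 0.919), beside the lower level at 0 h. For *Traf1* the 5 differences in response were -0.66 to -1.05 with s.e. of 0.58 to 0.62, and none passed (adjusted p from 0.493 to 0.887). Its libraries at 0 h held 5 to 6 counts in NT and 6 to 10 counts in IFT88siRNA.

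Other genes of the pathway, in 3 lists, were counted beside the members. Of 9 partners of A20 and genes of linear ubiquitin chains, 3 rose over the course in NT and none fell. They were *Rnf31*, the catalytic subunit of the ligase that makes linear chains (log2 1.46 at 4 h), *Rnf11*, a partner of A20 (0.79 at 24 h), and *Spata2*, which links CYLD to that ligase (0.76 at 2 h). Of 8 other TRAF proteins and TRAF binders, 4 rose and 1 fell. *Traf3ip2* (1.47 at 4 h), *Tank* (1.33 at 2 h), *Traf5* (1.16 at 2 h) and *Map3k14*, the kinase of the non-canonical pathway (0.59 at 1 h), rose, and *Traf4* fell by 0.73 at 4 h. Of 12 ubiquitin-conjugating enzymes, adaptors and substrates, 4 rose and none fell. They were *Peli1*, a ubiquitin ligase of IL-1 signalling (1.20 at 4 h), *Optn*, a ubiquitin-binding adaptor (1.12 at 2 h), *Tab2* (0.74 at 2 h) and *Ripk1* (0.63 at 4 h). These counts of 3, 5 and 4 changed genes stand beside the 50% of all genes called in the same test. Between the siRNA groups, edgeR called 0 of the 29 list genes over the 6 time points or in the response, and 15 and 8 of them had an unadjusted p under 0.05, beside 41.5% and 16.8% of all genes.

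The genes whose courses were most like those of 5 members were named by Pearson's r over the 12 condition means of log2 CPM, among 12583 genes that varied more than 1.5-fold. The values describe these means, which share libraries and time points. Nearest to *Tnfaip3* were *Csrnp1* (r = 0.995), *Plk2* (0.992), *Cited2* (0.989), *Ier5* (0.982) and *Junb* (0.981). Nearest to *Tnip1* were *Stx6* (0.990), *Camkk2* (0.985), *Tsku* (0.983), *Gpat3* (0.982) and *Foxp1* (0.978). *Birc3* was followed most closely by *Gm7019* (0.982), *Nfil3* (0.976), *AI839979* (0.975), *Tlr2* (0.974) and *Htra1* (0.973). *Traf1* was followed by *Lman1l* (0.975), *Cxcl10* (0.973), *Amotl2* (0.972), *Gm11772* (0.971) and *Icam1* (0.970). For *Cyld*, the least variable of the 5, the nearest were *Styk1* (0.909), *1700016A09Rik* (0.897), *Rpl17-ps8* (0.885), *Traf3* (0.868) and *Peak1* (0.866). Among the members themselves, *Traf1* lay close to *Birc3* (0.94) and *Birc2* (0.94), and *Tnfaip3* was nearer to *Birc3* (0.78) than to *Traf2* (-0.38).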

How the data were processed

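Poly(A) RNA of 36 libraries was measured. The authors aligned paired-end reads to GRCm38 with HISAT2 2.1.0 and the Ensembl annotation, and deposited whole-number counts per gene from featureCounts (Subread 1.6.3) without normalization. Default counting, as their methods give it, is without regard to strand. The authors also deposited TPM per gene from Salmon 0.9.1. No other annotated gene has exons that overlap those of the 10 members.

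Groups came from the sample labels. The labels give the siRNA at 50 nM and the methods at 10 nM. The labels describe 3 sequencing lanes, and the sources used here assign no library to a lane. Nothing says that replicates were separate cultures, so p-values measure the spread between these samples, which may be technical. Replicates differed by more than sampling noise (chi-square per degree of freedom 1.65 to 10.0).

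Tests on the counts used edgeR 4.0.16 under R 4.3.3 (filterByExpr with a minimum count of 10, TMM scaling, quasi-likelihood F-tests, two-sided) on the whole gene table, with Benjamini-Hochberg adjustment over all genes tested. A call needed an adjusted p under 0.05 and a fold over 1.5, in joint tests at 1 or more of the time points. The standard error is the absolute log2 fold change over the square root of F. Levels are CPM with TMM scaling, or TPM between genes. Overlap between the siRNA groups was read for the members and *Ift88* only, and its share over all genes was not counted. Alternatives were DESeq2 1.42.0, its size factors, upper-quartile scaling, no filter on low counts, no fold threshold, a replicate block, 1 model for all libraries, leaving out each replicate, and limma 3.58.1 on log2(TPM + 1), on log2(TPM + 0.1) and without a filter on TPM (1 TPM in 3 libraries). The steps were tested on simulated data. ImpulseDE2, which the study's methods use for time courses, was not used here.

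The members, the lists and the markers were chosen with earlier results of these data known. All 10 members are named, and of each list at most 4 genes that passed the joint test in NT with the largest fold, in addition to *Map3k14*, the fifth of its list, which was named after its values were seen. For 5 members the 5 genes with the most similar course are named. Upstream sequences are from RefSeq, and gene positions from GENCODE for GRCm38. Figures were drawn with matplotlib 3.10.9.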

Additional observations from a re-analysis of the deposited data

Results flagged for a closer look

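In 4 members the change from 0 h differed between the siRNA groups when the 5 time points were tested together (edgeR quasi-likelihood test in all 36 libraries, Benjamini-Hochberg adjusted p over 16710 genes), although no difference passed 1.5-fold. *Tnfaip3* had an adjusted p of 5.22e-05, and its largest difference, at 2 h, was a response higher by 0.31 on the log2 scale in IFT88siRNA (4.54 against 4.22, adjusted p at that time 0.0361). *Birc3* had an adjusted p of 0.00451, with a difference of -0.49 at 1 h (1.92 in IFT88siRNA against 2.41 in NT, adjusted p at that time 0.00239). *Birc2* had an adjusted p of 0.0161, with a difference of -0.29 at 1 h (0.27 against 0.56, adjusted p at that time 0.0913). *Tnip1* had an adjusted p of 0.0325, with a difference of -0.36 at 4 h (1.52 against 1.88, adjusted p at that time 0.0119). At these times the difference was positive for *Tnfaip3*, whose level at 0 h was lower in IFT88siRNA. It was negative for *Tnip1* and *Birc3*, whose means at 0 h were 33.7 against 29.8 CPM and 11.9 against 10.5 CPM. It was also negative for *Birc2*, with 43.1 against 43.3 CPM at 0 h. For *Tnfaip3* the gap between the siRNA groups was wider at 4 and 8 h (-0.62 at both) than at 0 h (-0.45), so its response was not higher in IFT88siRNA at those times. The part of the 0 h level in these differences was not tested.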

How the results depend on the processing

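Of 3314 values of single members and *Ift88* under the alternatives, 3174 kept their side of the threshold, 81 passed a threshold that they had missed, 59 no longer passed one, and no called value changed sign. The counts of members changed over the course in NT and IFT88siRNA stayed between 6 and 10 of 10. Without a fold threshold, where all 10 were called, 14188 of 16048 genes were called in NT and 13875 of 16129 in IFT88siRNA. On log2(TPM + 1), with 6 members in each group, 7508 of 16870 and 6928 of 16443 genes were called. Without a fold threshold, the called steps between neighbouring times went from 16 to 35, the siRNA differences at single times from 4 to 12, those over 6 times from 3 to 8 and the responses from 0 to 4, since that setting calls smaller differences. It called 31.8% of all genes over 6 times and 5.53% in the response. At single times it called from 407 of 14728 genes at 2 h to 2979 of 15274 at 0 h. For the steps, its calls over all genes were not counted. On log2(TPM + 1), on log2(TPM + 0.1) and without a filter on TPM, the siRNA differences at single times went from 4 to 0. Of all genes, log2(TPM + 1) called 85 of 14538 at 1 h, 10 of 14757 at 4 h and 38 of 14864 at 8 h. The main setting called 393, 64 and 105 genes at these times. In all of these TPM settings *Ift88* itself was no longer called at 1, 4 and 8 h (-1.06 to -2.18, adjusted p from 0.0578 to 0.28 with limma). The cause was not tested. When single libraries were left out, the count of siRNA differences at single times was 2 to 5, and it was 2 without replicate 2 of IFT88siRNA at 8 h. When each replicate number was left out, the count was 16 to 17 for neighbouring steps, 2 for the differences over 6 times and 0 to 1 for the response, where *Birc3* was called without replicate 2. Of all genes, 451 to 877 were then called over 6 times and 62 to 165 in the response. With the replicate block, 6 siRNA differences at single times were called (adding *Tnip3* at 1 h and *Traf1* at 2 h), 3 over 6 times and 0 in the response, and the counts over the course and of neighbouring steps were 8, 8 and 16 as before. The block called 458 of 14797 genes at 1 h and 115 of 14728 at 2 h. It called 915 of 16710 over 6 times and 226 in the response. Libraries with the same number did not deviate together (18 correlations from -0.133 to 0.223, of which 2 were over 0.1), so the numbers were not used as pairs. Depth limits *Traf1* and *Tnip3* most, with 5 to 16 counts per library at 0 h.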
